A study of Mus musculus with 8 samples.

Results

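The CDC25 phosphatases, CDK inhibitors, D cyclins and BTG proteins described here are 10 genes (Cdc25a, Cdc25b, Cdc25c, Cdkn1b, Cdkn2c, Cdkn2d, Ccnd2, Ccnd3, Btg1 and Btg2) out of 22180 genes with a probe set of their own. Each of the 10 had exactly 1 probe set annotated with its symbol alone, so no choice between probe sets was made. The group was chosen by a measured value, the higher Cdc25b level in Pggt1b KO arrays beside lower proliferation genes. All differences of the 10 genes and of the proliferation genes between the genotypes are therefore a description and support nothing further. No p-value is given for the 10 genes or for the S phase and mitosis genes. RNA came from CD4SP (CD4 single-positive) thymocytes, which have been selected for the CD4 lineage and are close to leaving the thymus. They were sorted from thymi of mice on a C57BL/6 background. The 8 arrays held 4 samples of wild-type (WT) and 4 of Pggt1b_KO cells (KO), all untreated as far as the labels say. Pggt1b encodes a subunit of GGTase-I, the enzyme that attaches a geranylgeranyl lipid of the mevalonate pathway to small GTPases, and the study asked how this bears on thymocyte egress. The sources used here do not give the deleted part of the gene, any Cre driver, the age of the mice or any pooling of animals. Nothing says that the samples of a genotype came from separate animals, so the spread between them may be technical.

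Cyclin-dependent kinases (CDKs) drive the cell cycle. D cyclins activate CDK4 and CDK6 in G1. INK4 inhibitors such as Cdkn2c and Cdkn2d bind these kinases, while Cdkn1b (p27) holds the CDK2 complexes that act next. CDC25 phosphatases remove inhibitory phosphates from CDKs, CDC25A from G1 onward and CDC25B and CDC25C chiefly at entry into mitosis. Btg1 and Btg2 encode antiproliferative proteins that recruit the CCR4-NOT deadenylase to messenger RNAs and are known to keep T cells quiescent. Most CD4SP thymocytes are out of cycle.

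Sequence before the start site is shown for the genes at the ends of the comparison, Cdc25b and Cdkn1b, which were higher in KO, and Cdc25a, which had the largest fall. It comes from RefSeq on GRCm38.p6, plus strand, written 5′ to 3′ in lower case, with matches to the searched letters in capitals. For Cdc25b only the 30 bases around a match are given, at chr2:131186882-131186911, because its window lies inside RefSeq's interval of the gene. The Cdc25a stretch is chr9:109875329-109875518 and the Cdkn1b stretch is chr6:134920151-134920400.
Cdc25b: cccgcccttggTCCCGCCctcccggaaccg
Cdc25a: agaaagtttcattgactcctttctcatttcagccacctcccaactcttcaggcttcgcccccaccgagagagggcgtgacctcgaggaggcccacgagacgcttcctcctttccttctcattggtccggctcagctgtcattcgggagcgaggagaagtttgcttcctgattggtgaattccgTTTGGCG
Cdkn1b: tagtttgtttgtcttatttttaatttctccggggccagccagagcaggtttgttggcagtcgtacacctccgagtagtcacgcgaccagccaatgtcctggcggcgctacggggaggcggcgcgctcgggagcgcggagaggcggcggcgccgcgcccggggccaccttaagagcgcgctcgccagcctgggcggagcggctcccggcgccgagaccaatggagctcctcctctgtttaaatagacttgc

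RefSeq promoters were at hand for 8 of the 10 genes, with 10 windows of 250 bases before a start site. Some windows reach into RefSeq's interval of their gene, by 61 bases for Cdc25a and 212 for Cdkn2d. All 250 bases do so for Cdc25b and for 1 window each of Cdkn2c and Ccnd3. The matches of Cdc25b and Cdkn2d given next lie inside that interval. Both strands were searched for the E2F letters GGCGGGA, the CHR letters TTTGAA, the FOXO letters TGTTTAC and the KLF letters CCACACC. The E2F letters lay before Cdc25b, Cdkn2c (1 of its 2 windows), Cdkn2d, Btg1 and Btg2, on the minus strand for Cdc25b, where its complement TCCCGCC is capitalised above. Among 11495 promoters of tested genes 17.6% held them. The FOXO letters lay before Btg1 and Ccnd3 (1 of its 2 windows), against 2.18% of those promoters. The CHR and KLF letters, held by 10.5% and 6.66% of them, were in none of the windows of these genes. The letters TTTGGCG, another E2F form added after the sequences had been read, lay before Cdc25a, from 67 to 61 bases ahead of the start, and in 2.1% of the promoters. Genes lower in KO (Cdc25a, Cdkn2d), higher (Cdc25b) and not called (Btg1, Btg2, Cdkn2c) had a match to one of the E2F forms. Cdkn1b, also higher, and Ccnd3, not called, had none. Cdc25a matched only the form added after the sequences had been read. A match describes letters only.

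Values are log2 RMA intensities, so a step of 1 is a doubling of signal, and levels of different genes are not compared. Array medians lay between 5.52 and 5.59. Pggt1b itself was 8.35, 8.38, 8.29 and 8.36 in WT and 7.89, 7.57, 7.69 and 7.86 in KO, with no overlap (adjusted p = 0.00141, limma). A gene was tested where its mean over the arrays reached the median of all probe sets, a log2 value of 5.56, which left 11585 genes. It was called at a Benjamini-Hochberg adjusted p under 0.05 in limma. By that rule 515 genes were higher and 988 lower in KO, or 383 and 1321 with each array centred on its median.

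The CDC25 family moved in opposite directions. Cdc25b stood at 8.09, 8.16, 8.02 and 8.03 in WT and at 9.73, 9.82, 9.51 and 9.93 in KO. Every KO array was above every WT array, and the gap between the lowest KO and the highest WT array was 1.34. The mean rose from 8.07 ± 0.0656 to 9.74 ± 0.179 (SD, n = 4 per genotype), a difference of 1.67 ± 0.0849 (SE) on the log2 scale, or 3.18-fold. Among the tested genes this rise ranked 7 of 11585 by size.

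Cdc25a, the family member with roles from G1 onward, went the other way. It stood at 9.18, 9.32, 9.24 and 9.34 in WT and at 8.93, 8.74, 8.81 and 8.92 in KO. The genotypes were apart by 0.25, with KO the lower, and the mean went from 9.27 ± 0.0735 to 8.85 ± 0.0900 (SD, n = 4). It fell by 0.42 ± 0.0609 (SE) on the log2 scale, a 1.34-fold difference. Cdc25c, whose phosphatase acts at mitosis, was close to background, at 4.56, 4.86, 4.73 and 4.37 in WT and 4.26, 4.45, 4.45 and 4.52 in KO. It did not pass the intensity filter and was not tested. Its genotypes overlapped, and the difference was -0.21 ± 0.101 (SE, from the fit with no intensity filter). In RNA of whole sorted samples, a lower level from fewer cells of a type cannot be told apart from less RNA per cell.

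**Figure D1:**
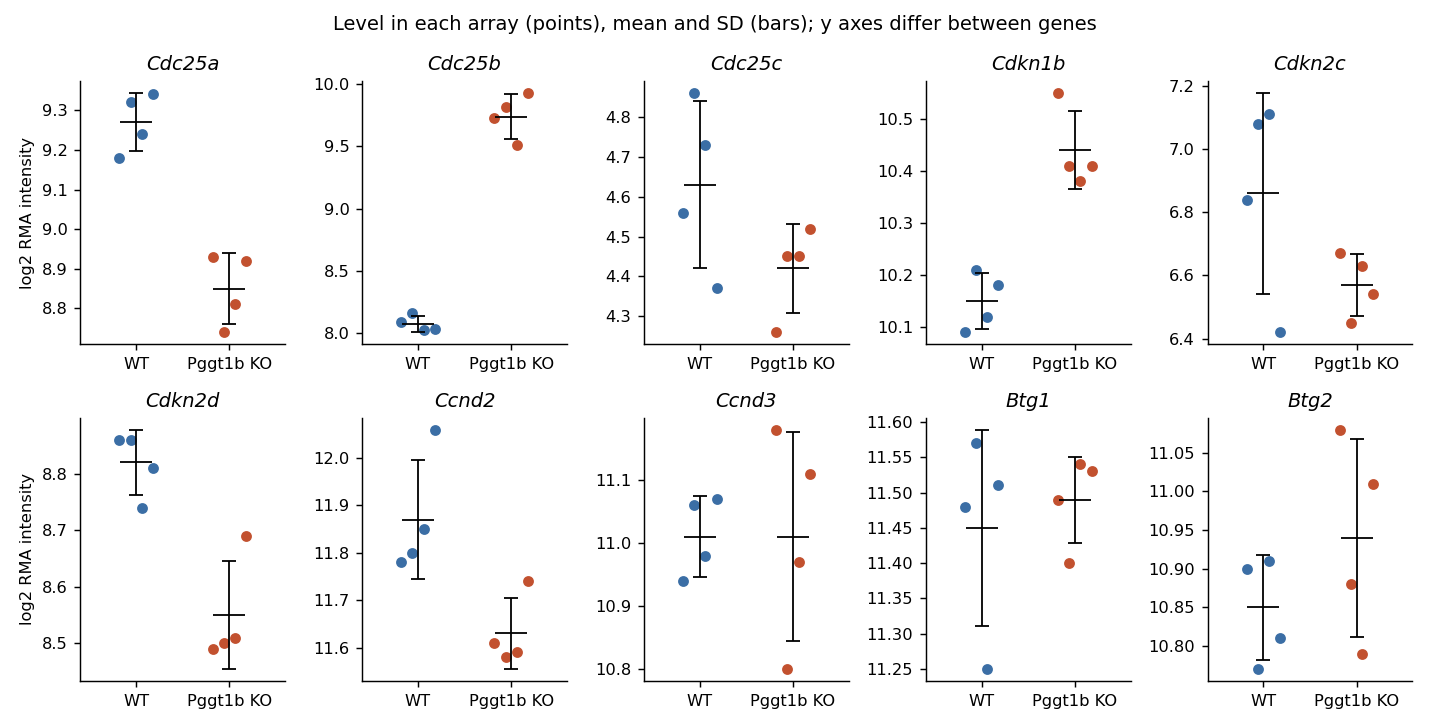
Log2 RMA intensity of each of the 10 genes in the 4 WT and 4 Pggt1b KO arrays (points), with mean and SD (bars) and a separate y axis for each gene. Cdc25b lies at 9.51 to 9.93 in KO against 8.02 to 8.16 in WT, while Cdc25a, Cdkn2d and Ccnd2 lie lower in every KO array and Cdkn1b higher.

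The 3 CDK inhibitors did not move as one. Cdkn1b, which encodes p27, was 10.09, 10.21, 10.12 and 10.18 in WT and 10.55, 10.41, 10.38 and 10.41 in KO. All KO arrays were above all WT arrays, with KO replicate 1 the highest, and the mean rose by 0.28 ± 0.0543 (SE), 1.22-fold. Its call was kept whichever single array was left out, with differences from 0.25 to 0.30, and ended without KO replicates 1 and 2 (0.24) or without WT replicates 2 and 3 (0.30).

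The INK4 gene Cdkn2d was 8.86, 8.86, 8.74 and 8.81 in WT and 8.49, 8.50, 8.51 and 8.69 in KO. KO replicate 4 was only 0.05 below the lowest WT array, yet no KO array reached the WT range. The fall of 0.27 ± 0.0595 (SE), 1.21-fold, lost its call without WT replicate 2 (-0.26), KO replicate 1 (-0.25) or KO replicate 3 (-0.26). The related INK4 gene Cdkn2c was 6.84, 7.08, 7.11 and 6.42 in WT and 6.67, 6.45, 6.63 and 6.54 in KO. Its WT arrays spread over 0.69, and WT replicate 4 lay below every KO array. The difference of -0.29 ± 0.136 (SE) was not called over all arrays, and it was called, at -0.43, without WT replicate 4.

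The D cyclins also differed from each other. Ccnd2 was 11.78, 11.80, 11.85 and 12.06 in WT and 11.61, 11.58, 11.59 and 11.74 in KO. The groups stayed apart by 0.04, less than the spread of either genotype, and the fall was 0.24 ± 0.0702 (SE). Its call was weak. It ended without WT replicate 2 (-0.27), 3 (-0.25) or 4 (-0.18), or without KO replicate 1 (-0.24), 2 (-0.23) or 3 (-0.23), and with no intensity filter.

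Ccnd3, the D cyclin that immature thymocytes need for their expansion, was 10.94, 11.06, 10.98 and 11.07 in WT and 11.18, 10.80, 10.97 and 11.11 in KO. The KO arrays held both the highest and the lowest value, and the difference was 0.00 ± 0.0807 (SE, 95% interval from -0.18 to 0.18).

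The antiproliferative pair showed overlapping groups. Btg1 was 11.48, 11.57, 11.25 and 11.51 in WT and 11.49, 11.40, 11.54 and 11.53 in KO, a difference of 0.04 ± 0.0720 (SE, 95% interval from -0.12 to 0.20). WT replicate 3 was the lowest array, and all others lay within 0.17 of each other. Btg2 was 10.90, 10.77, 10.91 and 10.81 in WT and 11.08, 10.88, 10.79 and 11.01 in KO. Its KO replicates 1 and 4 lay above the WT range, and the difference was 0.09 ± 0.0698 (SE, 95% interval from -0.07 to 0.25). Neither gene was called under any of the alternatives run.

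Counted together, 9 of the 10 genes passed the intensity filter, 2 were called higher (Cdc25b and Cdkn1b), 3 lower (Cdc25a, Cdkn2d and Ccnd2) and 4 neither. Of all tested genes 13.0% were called, 4.45% higher and 8.53% lower. The same 5 genes had no overlap between the genotypes, 2 with all KO arrays above and 3 with all below. Over all tested genes these shares were 20.3% in either direction, 6.79% above and 13.5% below. Since the group was picked from this very comparison, nothing is read from these counts. The median difference of the 9 genes was 0.0011 and that of all tested genes -0.03. The 5th and 95th percentiles of all tested genes were -0.32 and 0.245, so that Cdc25b, Cdc25a and Cdkn1b lay beyond them.

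**Figure D2:**
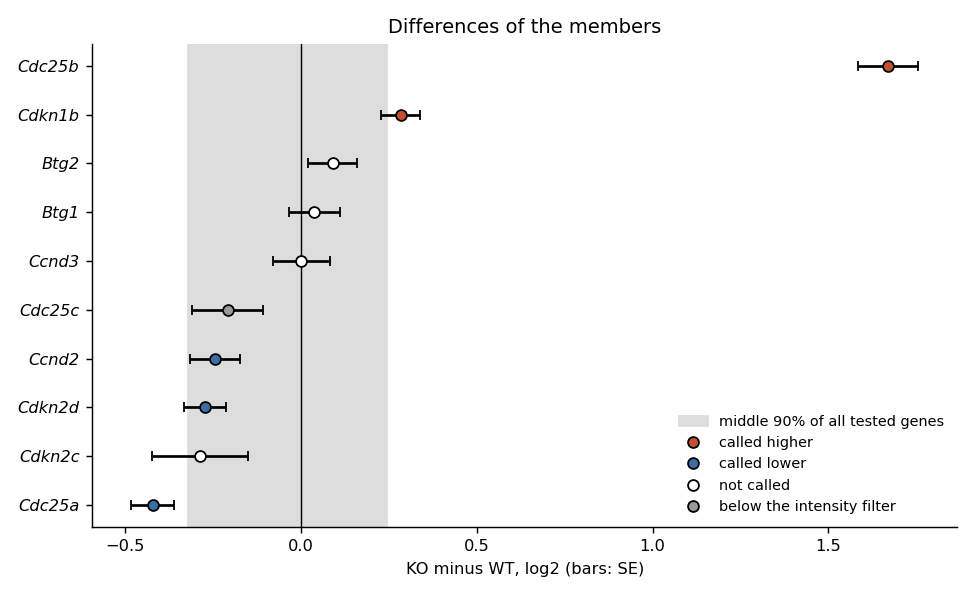
KO minus WT difference of each gene on the log2 scale, with SE as bars, and in grey the range between the 5th and 95th percentiles of all tested genes. Cdc25b stands at 1.67, Cdkn1b at 0.28 and Cdc25a at -0.42, with the other 7 genes between -0.29 and 0.09.

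The remaining genes of cell cycle control were taken from 7 lists ordered by role. Of 91 tested genes of these lists 5 were called higher and 15 lower in KO (limma, adjusted over all tested genes), 5.49% and 16.5%. Over all tested genes the shares were 4.45% and 8.53%, so the share of higher genes was close to that of all genes. The 5 include Usp28, which was listed with its rise known. The median difference of the 91 genes was -0.10. Some of them, such as Cdk1, Ccnb2, Chek1, E2f1 and Dtl, are proliferation genes too. The fall of such genes was used to choose the group, so their calls and adjusted p-values are no test. Which of the other lower genes follow proliferation was not tested, so nothing further is read from their p-values below. With the mean of the S phase and mitosis genes as a covariate, 0 of the 91 were called lower, and 9 of all tested genes. That covariate nearly follows genotype and widens the errors. Without WT replicate 3 the count of lower genes was 8, and without WT replicate 4 it was 24.

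Of the genes that act on CDC25 or against it, Wee1 and Chek1 fell. Wee1, the kinase that places the inhibitory phosphate that CDC25 removes, was 6.41, 6.96, 6.79 and 6.63 in WT and 5.73, 5.92, 6.00 and 6.21 in KO, with no overlap. It fell by 0.73 ± 0.128 (SE, adjusted p = 0.00728). Chek1, the checkpoint kinase that phosphorylates CDC25 proteins and restrains them, was 6.50, 6.77, 6.72 and 6.34 in WT and 5.80, 5.78, 5.90 and 5.97 in KO. It fell by 0.72 ± 0.0954 (SE, adjusted p = 0.00195, no test by the limit above), also without overlap.

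Of the 18 tested genes of that list these were the 2 called lower (3 without WT replicate 1 or 4, 4 without KO replicate 4), and 1 was called higher. The latter was Usp28, a deubiquitinase of the DNA damage response (1.34 ± 0.0884 SE). It was listed with its rise known from earlier results, so its call is no test. Chek2 stood at -0.38 (adjusted p = 0.0598) and Ywhab, a 14-3-3 protein of the kind that holds phosphorylated CDC25, at -0.15 (adjusted p = 0.109). Without KO replicate 4 Chek2 was called, at -0.51.

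None of the 5 other CDK inhibitors was called by limma, and 1 was lower at an unadjusted p under 0.05. Cdkn1a, which encodes p21, differed by 0.06 ± 0.0578 (SE, adjusted p = 0.567). Its means of 5.75 in WT and 5.81 in KO were close to the intensity filter of 5.56, which limits what can be said of it. The CDK phosphatase gene Cdkn3 stood at -0.31 (adjusted p = 0.0680), and was called, at -0.39, without WT replicate 4.

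Of 15 other cyclins and CDKs 4 were called lower and 0 higher (limma, 9 and 0 at an unadjusted p under 0.05). The count of lower genes was 2 when WT replicate 2 or 3 or KO replicate 1 was left out, 7 for WT replicate 4 and 6 for KO replicate 4. Cdk4, the partner of the D cyclins, fell from 11.21 ± 0.0529 to 10.94 ± 0.0261 (SD, n = 4 per genotype), by 0.27 ± 0.0466 (SE, adjusted p = 0.00728, limma), with no overlap. Cks1b, the CDK subunit that helps to mark p27 for destruction, fell by 0.59 ± 0.0710 (SE, adjusted p = 0.00137). Skp2, the ubiquitin ligase subunit that works with it on p27, fell by 0.25 ± 0.0608 (SE, adjusted p = 0.0253). Neither Cks1b nor Skp2 overlapped between the genotypes, though Skp2 was 7.83 in KO replicate 1 and 7.86 in WT replicate 1. The values are of RNA, and no link of either gene to the Cdkn1b level was tested.

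Skp2 was no longer called when WT replicate 2 or 3 or KO replicate 2, 3 or 4 was removed (highest adjusted p 0.0680). The mitotic kinase gene Cdk1 and the mitotic cyclin gene Ccnb2 fell by 0.67 ± 0.149 and 0.61 ± 0.145 (SE, adjusted p = 0.0189 and 0.0256), with overlapping groups. Removing WT replicate 2 or 3 or KO replicate 1 ended the call of Cdk1 (highest adjusted p 0.0550). Removing replicate 1, 2 or 3 of either genotype ended that of Ccnb2 (highest adjusted p 0.0685). Cdk1 and Ccnb2 are among the proliferation genes named above, so their p-values are no test.

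Of 20 genes of the RB, E2F and DREAM group 5 were called lower and 0 higher (11 and 0 at an unadjusted p under 0.05, limma). The activating E2F genes E2f3 and E2f1 fell by 0.71 ± 0.0786 (SE, adjusted p = 8.07e-04) and 0.52 ± 0.0863 (adjusted p = 0.00548, no test by the limit above). Their DNA-binding partners Tfdp1 and Tfdp2 fell by 0.40 ± 0.0651 (adjusted p = 0.00531) and 0.25 ± 0.0572 (adjusted p = 0.0226). Rbbp4, a histone-binding subunit of DREAM, fell by 0.20 ± 0.0470 on its brightest probe set (adjusted p = 0.0227). All 5 were lower in every KO array than in any WT array. Without WT replicate 4 the count of lower genes in this group was 9, and without WT replicate 3, KO replicate 1 or KO replicate 3 it was 3. Tfdp2 lost its call when WT replicate 2 or 3 or KO replicate 1, 3 or 4 was removed (highest adjusted p 0.0628). Rbbp4 lost it when WT replicate 3 or KO replicate 1 or 3 was removed (0.0631).

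Among 11 genes for ubiquitin ligases of cell cycle proteins, 3 were called lower and 0 higher (5 and 0 at an unadjusted p under 0.05, limma). Besides Skp2 these were Dtl, the CUL4 adaptor for replication-coupled destruction, which fell by 0.94 ± 0.108 (SE, adjusted p = 9.97e-04), and Fzr1, an activator of the anaphase-promoting complex, by 0.20 ± 0.0487 (adjusted p = 0.0256). The other activator, Cdc20, stood at -0.23 (adjusted p = 0.108) and the CUL4 partner Ddb1 at -0.12 (adjusted p = 0.136). Dtl is among the proliferation genes named above, so its p-value is no test. Fzr1 was no longer called when replicate 2 or 3 of either genotype was removed (highest adjusted p 0.0717), and then 1 of the 11 genes was.

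Tob1, the relative of Btg1 and Btg2 that also restrains T cell proliferation, rose. It was 7.88, 7.86, 8.15 and 7.99 in WT and 8.82, 8.59, 8.33 and 8.34 in KO, a difference of 0.55 ± 0.113 (SE, adjusted p = 0.0143, limma) with no overlap. Of 11 tested genes of the BTG/TOB family and the CCR4-NOT complex, Tob1 was the 1 called higher, and the complex subunit gene Cnot11 the 1 called lower, by 0.24 ± 0.0524 (adjusted p = 0.0193). Cnot11 lost its call without WT replicate 3 (adjusted p = 0.0530). Cnot9 and Cnot4 stood at -0.15 (adjusted p = 0.0852) and 0.13 (adjusted p = 0.115).

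Quiescence factors were the 1 list of the 7 with more genes higher than lower. Of 11 tested, 3 rose and 0 fell (5 and 0 at an unadjusted p under 0.05, limma). Among all tested genes 4.45% were called higher and 8.53% lower. They were Klf2, a transcription factor of resting T cells (0.68 ± 0.0912 SE, adjusted p = 0.00206), the ubiquitin ligase gene Peli1 (0.31 ± 0.0537, adjusted p = 0.00643) and Vsir, an inhibitory receptor of resting T cells (0.27 ± 0.0503, adjusted p = 0.00914). The 3 calls were kept whichever single array was left out. With the mean of the S phase and mitosis genes as a covariate, 1 of all 91 control genes was called higher, against 5 without it. Klf2 is also in the list of mature single-positive cells used below. Foxo4 and Foxp1 stood at 0.11 and 0.12 (adjusted p = 0.147 and 0.153).

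**Figure D3:**
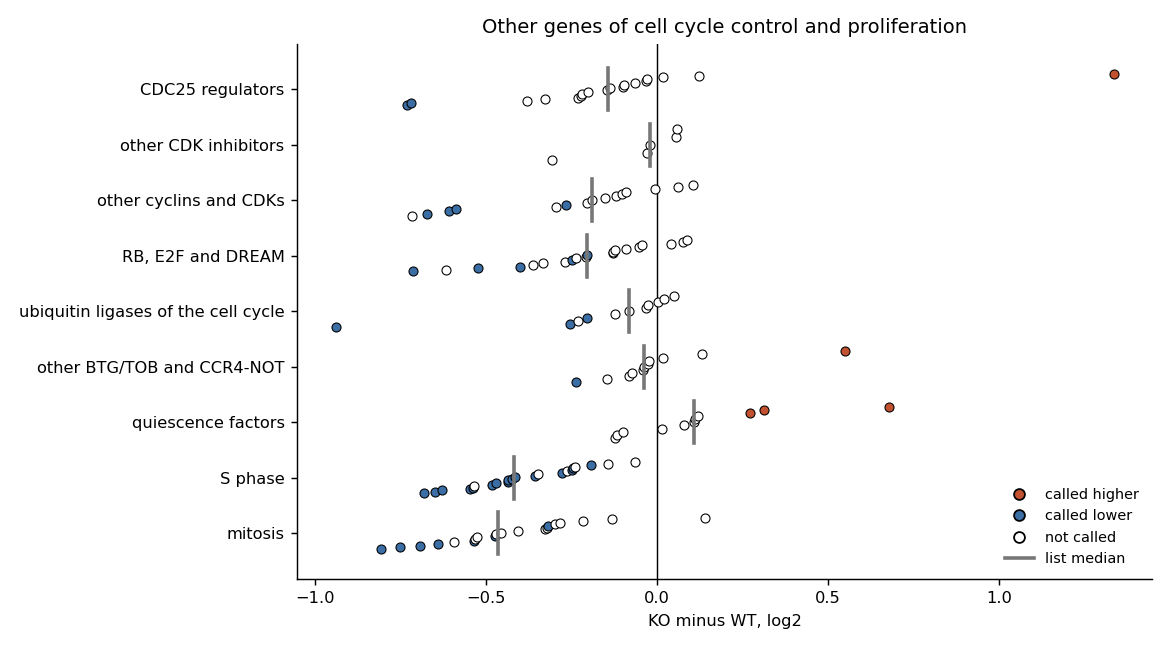
KO minus WT difference on the log2 scale of each tested gene of the 7 lists of cell cycle control and of the S phase and mitosis lists, with called genes filled and list medians as bars. List medians run from -0.46 for mitosis to 0.11 for quiescence factors. Usp28, listed with its rise known, is the gene farthest to the right, at 1.34.

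Replication and mitosis genes were lower in KO, which the choice of the group had used, so their values are given as a description and nothing is read from their counts. Of 42 genes past the intensity filter, 23 were called lower and 0 higher (limma, 0 also at an unadjusted p under 0.05), 54.8%, with a median difference of -0.43. The count of lower genes ran from 11 to 32 when single arrays were left out, lowest for WT replicate 2 and KO replicate 3. It was 14, 11 and 12 for WT replicates 1, 2 and 3, and 13, 12 and 11 for KO replicates 1, 2 and 3. For WT replicate 4 it was 32 and for KO replicate 4 it was 25. Of 22 S phase genes 16 fell, among them the helicase genes Mcm2 and Mcm5, the reductase gene Rrm1, and Gins2, Pola1 and Cdc6, by 0.41 to 0.63. Of 20 mitosis genes 7 fell, among them Ect2, Kif11, Top2a, Cenpe, Bub1 and Bub1b, by 0.32 to 0.81. The mitosis count was 0 when replicate 2 or 3 of either genotype was left out, 1 for replicate 1 of either, and 14 and 11 for replicate 4 of WT and of KO.

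The mean of the S phase and mitosis genes was 7.82, 7.96, 7.84 and 7.53 in WT and 7.35, 7.28, 7.36 and 7.54 in KO. WT replicate 4 and KO replicate 4 were almost level in this mean, but not in its parts. There the S phase mean was 8.123 in WT and 7.935 in KO, and the mitosis mean 6.887 and 7.102. The S phase mean was lower in every KO array than in any WT array. In WT and KO replicate 4 Cdc25b was 8.03 and 9.93, Cdc25a 9.34 and 8.92, Cdkn1b 10.18 and 10.41, and Cdkn2c 6.42 and 6.54. With this mean as a covariate, which nearly follows genotype and widens the errors, the Cdc25b difference was 1.83 ± 0.155 (SE). This sets side by side the values that chose the group and is no test of it. Cdc25a was at -0.40 ± 0.121 (SE), Cdkn1b at 0.27 ± 0.108, Ccnd2 at -0.36 ± 0.131 and Cdkn2d at -0.16 ± 0.110, and these 4 were no longer called. Cdkn2c, which was not called, was at 0.21 ± 0.181.

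**Figure D4:**
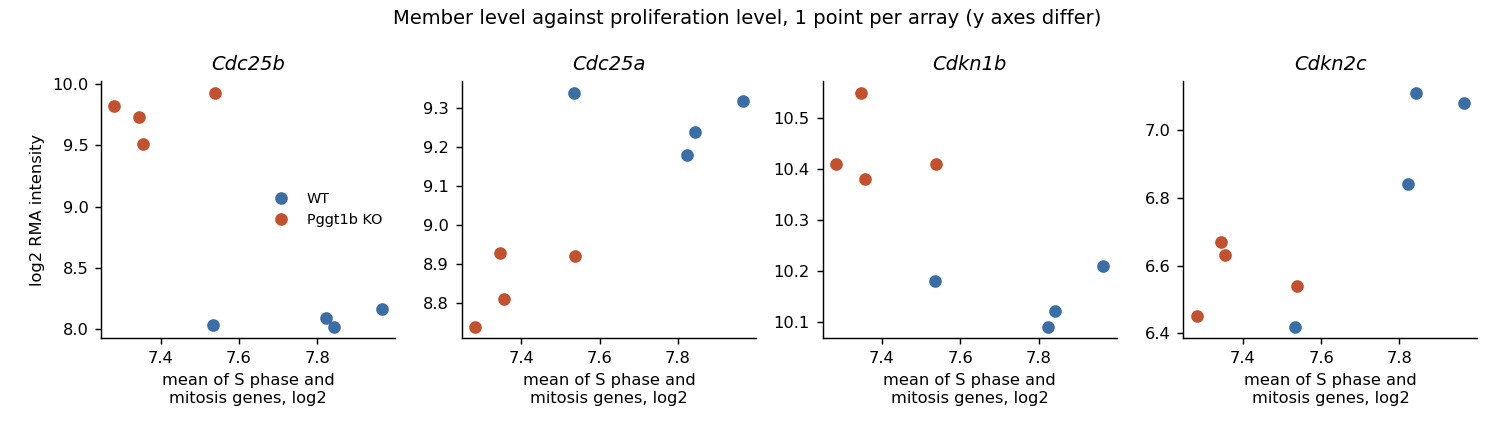
Level of Cdc25b, Cdc25a, Cdkn1b and Cdkn2c in each array against the mean of the S phase and mitosis genes in that array, both as log2 RMA intensity. The genotypes meet near 7.54 on the x axis, where Cdc25b is 8.03 in WT and 9.93 in KO while Cdkn2c is 6.42 and 6.54.

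The labelled cell type was checked against marker lists. Cd4 was 12.27 ± 0.0079 in WT and 12.26 ± 0.0620 in KO (SD, n = 4), and the mean of 8 tested CD4SP T cell genes was 11.01 to 11.07 in WT and 10.94 to 10.99 in KO, with 1 of 8, Gata3, called lower. Of 9 tested genes of mature single-positive cells 8 were called higher, and the list mean was 9.94 to 10.10 in WT and 10.65 to 10.76 in KO. Of 10 genes of recently selected cells 6 were called lower, with a list mean of 10.15 to 10.32 in WT and 9.83 to 9.98 in KO. Over all tested genes 4.45% were called higher and 8.53% lower. Both lists were drawn up with earlier results of these data known, so their counts are a description and no test. These maturation lists moved with genotype beside the 5 called genes, and their part in those differences was not tested.

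Of 4 CD8 lineage genes 1 fell, Cd8a, by 0.74 ± 0.194 (SE, adjusted p = 0.0354, limma), and the list mean was 8.59 to 8.90 in WT and 8.20 to 8.60 in KO. Its call ended when WT replicate 2 (-0.64) or 3 (-0.72) or KO replicate 2 (-0.57) or 4 (-0.69) was removed. No double-positive gene (5 tested) and no regulatory T cell gene (4 tested) was called (limma, each list with 1 gene lower at an unadjusted p under 0.05). The double-positive list mean was 6.79 to 7.05 in WT and 6.59 to 6.86 in KO, and the regulatory T cell mean 8.21 to 8.43 and 8.09 to 8.30. Below the intensity filter lay 4 of 5 B cell genes, 6 of 8 myeloid and dendritic genes, 3 of 5 thymic epithelial genes and the 1 erythroid gene with a probe set. Over all genes with a probe set the B cell mean was 5.11 to 5.22 in WT and 5.13 to 5.33 in KO, the myeloid mean 4.87 to 5.06 and 4.86 to 5.11, and the epithelial mean 5.57 to 5.66 and 5.53 to 5.63. The part of these cells in the result was not tested.

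Heat-shock genes varied within both genotypes. The mean of Hspa1a and Hspa1b was 5.27, 6.36, 8.58 and 6.74 in WT and 10.34, 9.79, 4.57 and 8.25 in KO, so that KO replicate 3 was the lowest of all and the genotypes overlapped. With this mean as a covariate Cdc25b differed by 1.62, Cdc25a by -0.43 and Cdkn1b by 0.26, each still called. Cdkn2d at -0.25 and Ccnd2 at -0.25 lost their calls.

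**Figure D5:**
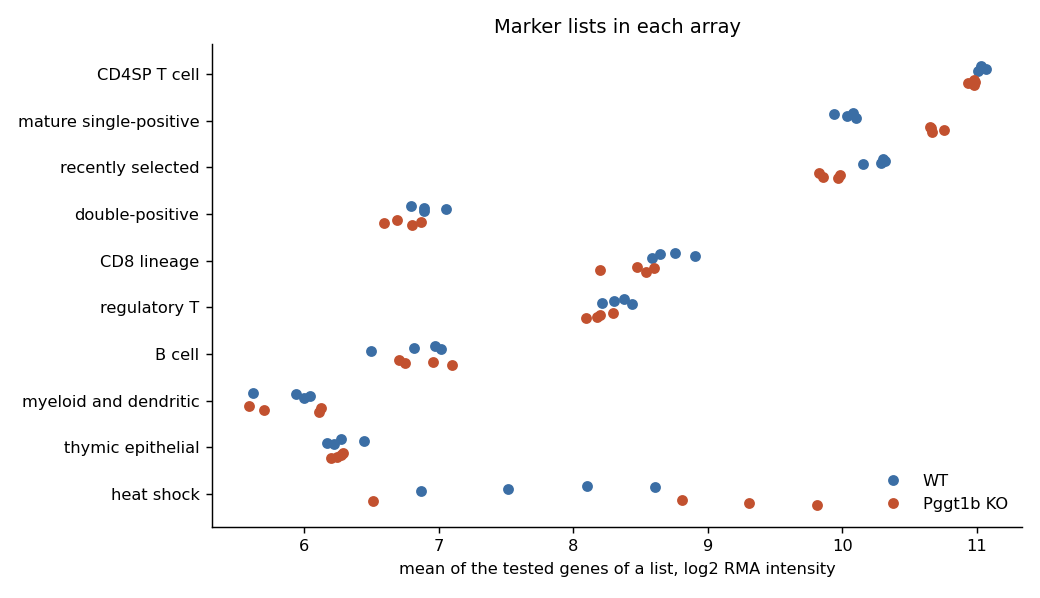
Mean log2 RMA intensity of the tested genes of each marker list in each WT and KO array. The mature single-positive list is higher in all KO arrays (10.65 to 10.76 against 9.94 to 10.10), the recently selected list lower in all of them, and the heat-shock list spreads widely within both genotypes.

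Each gene's profile over the 8 arrays, less its own WT mean, was compared with that of Cdc25b by the mean absolute difference. The most alike were Chil5, of the chitinase-like family, at 0.0707, Sidt1, a transmembrane protein gene, at 0.118, the long noncoding RNA gene Lncpint at 0.148, the predicted gene Gm26583 at 0.179 and Usp28 at 0.210. Chil5 was 5.64, 5.50, 5.32 and 5.40 in WT and 7.02, 7.33, 6.91 and 7.28 in KO. As for Cdc25b, its lowest KO array was replicate 3. Its WT mean of 5.46 lay below the intensity filter. Sidt1 rose from 8.75 ± 0.174 to 10.39 ± 0.0840 (SD, n = 4) on its brightest probe set, a difference of 1.64. With the mean of its probe sets the difference was 1.15, so its place in this order depends on that choice. The measure picks genes by the size of their rise in KO, and no other property of them was compared.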

How the data were processed

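Each sample was hybridised to 1 Mouse Gene 2.0 ST array. The authors' deposited table holds a log2 intensity for each gene-level probe set. Per the submitters' processing notes, it came from RMA in Expression Console 1.1. The sources used here give neither genome build nor filters. Of 41345 probe sets, 23521 were annotated with 1 gene symbol, 1814 with several and 16010 were unnamed here. They stand for 22180 genes, each taken by its brightest probe set. The genotypes were compared with limma 3.58.1 under R 4.3.3 (two-sided, genotype as the only term, Benjamini-Hochberg over 11585 tested genes), tested on simulated data. The number of arrays limits the precision. The sources used here give no batch. Array correlations across tested genes were 0.990 to 0.995 within and 0.985 to 0.990 between genotypes.

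The 10 genes and all lists were chosen with earlier results of these data known. Named genes were, per list, up to 6 called genes by p, plus up to 2 others where fewer than 4 were called, and the 5 genes most like Cdc25b. Marker genes named in the text were picked after their values were seen. The alternatives were filters, scalings, priors, weights, covariates, a stricter threshold and leaving out arrays. A comparison of protein sequences was planned and not made, since no protein sequences were used here.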

Additional observations from a re-analysis of the deposited data

Results flagged for a closer look

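In groups of 4 arrays, a sample was picked out where its gap to the nearest other array took up most of the group's range (Dixon's test at 95%). Of 114 groups of the named genes 5 met this, and about 1 in 20 would by chance. For the cell cycle regulators described, Cdkn1b KO replicate 1 stood at 10.55 against 10.38 to 10.41 in the other KO arrays. Cdkn2d KO replicate 4 stood at 8.69 against 8.49 to 8.51, and Ccnd2 KO replicate 4 at 11.74 against 11.58 to 11.61, both on the side of the WT arrays. Outside these 10 genes, Tfdp2 WT replicate 1 stood at 7.93 against 8.10 to 8.13, and Skp2 KO replicate 1 at 7.83 against 7.61 to 7.63.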

How the results depend on the processing

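Cdc25b was called higher under all 21 alternatives, with differences from 1.61 to 1.83, and Cdc25a lower under all but the proliferation covariate, from -0.45 to -0.38. The alternatives refit the arrays from which the group was picked. Calls of the 10 genes kept or lost under them are therefore a description and no test. Leaving out single arrays gave 2 of the 10 genes higher each time and 1 to 3 lower, 8 to 24 of the other control genes lower, 11 to 32 S phase and mitosis genes lower, and 302 to 496 genes higher and 493 to 945 lower overall. At an adjusted p under 0.01 the 10 genes had 1 higher and 1 lower, with 8 other control genes and 8 S phase and mitosis genes lower, and 206 genes higher and 240 lower overall. With the proliferation level as a covariate the counts were 1 higher and 0 lower (limma), and 1 and 0 of the other control genes. Of all tested genes 34 were then higher and 9 lower (main counts 515 and 988). Ccnb2 stood at 0.0582 ± 0.105 (SE) under this covariate, a change of sign that lies within its error. Adjusting for the heat-shock mean, 1 of the 10 genes, 11 S phase and mitosis genes and 524 genes overall were lower, and with no intensity filter 15 and 556. Without KO replicates 1 and 2 the counts were 1 higher and 1 lower, 2 and 5 of the other control genes, 5 S phase and mitosis genes lower, and 136 and 122 overall. Without WT replicates 2 and 3 they were 1 and 1, 2 and 4, 4 lower, and 150 and 145. A stricter threshold lowers such counts by construction, and for the other alternatives the cause was not tested. No paired analysis was possible because the labels give no number shared between the genotypes. Signal near background limits what can be said of Cdc25c.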
